A study of Drosophila melanogaster with 6 samples.

Results

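The genes described here are those of Rab and Arf vesicle traffic in sorted cells of the *Drosophila melanogaster* wing imaginal disc, the larval epithelium that forms the adult wing and dorsal thorax. Members were all probe sets whose single gene symbol in the platform annotation begins with Rab, Arf or Arl followed by a digit or a capital letter, together with *siz*, *step*, *garz* and *Sec71*. The choice by symbol gave 33 genes with 37 probe sets, out of 10843 genes named on the array and 13966 probe sets other than controls. They comprised 21 Rab GTPase genes, 3 Arl GTPase genes, the Arf exchange factor genes *siz* and *Sec71*, the Arf GTPase-activating protein genes *ArfGAP1* and *ArfGAP3*, 4 genes that regulate or modify Rabs, and *Arl6IP1*. The set held no Arf GTPase itself, although Arf regulators were in it. Of 54 genes in the RefSeq table whose symbols meet the same choice, 21 were not analysed here, among them *Rab1*, *Rab5*, *Rab7*, *Rab11*, *step* and *garz*.

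Cells came from larvae that carried green fluorescent protein (GFP) under E(spl)m4 regulatory DNA, a reporter of proneural clusters, from which the precursors of sensory bristles arise. GFP-positive cells were all those brighter than disc cells of the *w1118* strain, and GFP-negative cells were 100000 cells per sample below that threshold. Both groups were sorted from the same kind of preparation, about 200 reporter discs per sample taken late in the third larval instar, and both had been dissociated in trypsin before sorting. Each group had 3 arrays. The labels name no separate dissection or culture for a replicate, and the spread that the p-values use may therefore be technical. The reporter marks whole clusters rather than precursors alone, and each sample is a bulk of many cells, in which fewer cells of a type and less RNA per cell cannot be told apart.

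Rab and Arf proteins are small GTPases that switch between a GTP-bound, membrane-attached form and a GDP-bound form. Exchange factors load GTP (the Sec7 domain is the exchange domain for Arfs), GTPase-activating proteins end the active state, and Rabs need a lipid tail, added by a prenyl transferase, to reach membranes. Rabs give each compartment its identity and recruit tethers and motors, Arfs recruit coats and lipid enzymes, and Arls act at the Golgi, lysosomes and cilia. In the fly's sensory organ precursors, endosomal traffic is known for sorting Notch and its ligand Delta when the cells divide.

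Present calls numbered 4301, 4310 and 4520 of the 13966 probe sets in GFP-positive replicates 1, 2 and 3, against 5017, 4937 and 4363 in GFP-negative replicates 1, 2 and 3. The sorted gene *E(spl)m4-BFM* was Present on 3 of 3 GFP-positive and 0 of 3 GFP-negative arrays. Of 14 proneural and precursor markers 10 were tested and 8 rose, with summed signals of 7528.5 to 9063 in GFP-positive against 1470.4 to 2046.9 in GFP-negative cells. Markers of the adult muscle precursors that adhere to the disc had 5 tested genes. Of these 2 fell and 0 rose, with 4 negative differences and 1 positive. Summed signals over 7 genes were 4286.9 to 4726.5 in GFP-positive against 7236.3 to 8253.3 in GFP-negative cells. No array called *twi* or *zfh1* Present, so neither was tested. Signals of *twi* were 31.9 to 66.7 in GFP-positive against 522.6 to 603.9 in GFP-negative cells. Those of *zfh1* were 42.4 to 112.1 in GFP-positive against 256.4 to 348.2 in GFP-negative cells. All 3 posterior compartment markers fell, with summed signals of 695.3 to 1028.2 in GFP-positive against 3614.8 to 4688.1 in GFP-negative cells. The disc epithelium markers *crb*, *vg*, *ap* and *scrib* were Present on all 6 arrays, while the probe sets used for *shg*, *nub*, *Dll* and *dlg1* were Present on none. Of 5 hemocyte markers on the array 4 were Present on no array, and 0 of 2 tested tracheal markers and 0 of 1 tested glial marker passed. The summed glial signal over 4 genes was 321.6 to 597 in GFP-positive against 260.6 to 297.7 in GFP-negative cells. In that sum *gcm*, Present on 1 array, had 100 to 251.2 in GFP-positive against 5.9 to 86.4 in GFP-negative cells. The groups overlapped for *repo*, *moody* and *Gs2*, and the tested *repo* had a log2 difference of -0.088.

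Signal is the array software's brightness in arbitrary units, and testing required a Present call on 2 or more arrays of either group. Of the 37 probe sets 17 were tested, 1 for each of 17 genes. That is 45.9% of them, against 35.4% of all probe sets. Present calls on all 6 arrays were made for 13 (35.1%, against 25.5% of all probe sets), and 16 were Absent on all 6 (43.2%, against 56.3%). The number of probe sets called Present per array was 16, 15 and 16 in GFP-positive replicates 1, 2 and 3, against 19, 18 and 15 in GFP-negative replicates. The means were 15.7 ± 0.577 in GFP-positive against 17.3 ± 2.08 in GFP-negative cells (SD, n = 3 each), and the exact permutation test (two-sided) gave p = 0.4, with 0.1 the smallest p that this design allows.

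**Figure D1:**
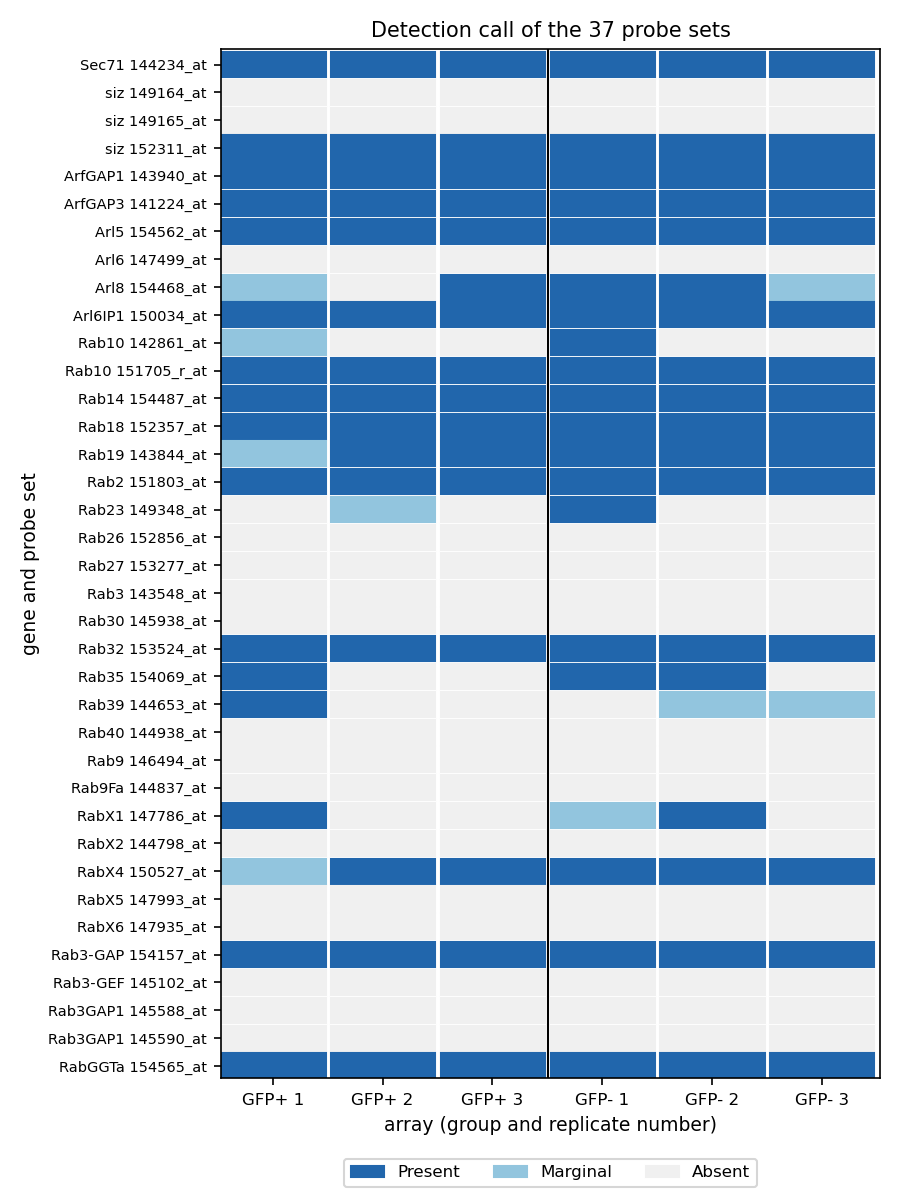
Detection calls of the 37 probe sets (rows, grouped by the protein's role) on the 6 arrays (columns, GFP-positive left, GFP-negative right). 13 rows are Present throughout and 16 are Absent throughout, and no row is Present on all arrays of one group and on none of the other.

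Among the traffic genes, the Arf exchange factor gene *siz* alone passed the test of GFP-positive against GFP-negative cells, and it rose. *siz* (also called schizo or loner) encodes a Sec7-domain exchange factor known in the fly for acting on Arf6 in myoblast fusion and in axon guidance at the midline. The gene was added to the set by name with its rise in these samples already known, so its p-value is not independent evidence of it. Its probe set 152311_at had signals of 5239.8, 14525.5 and 4140.8 in GFP-positive replicates 1, 2 and 3, against 1059.1, 1401.2 and 1770.1 in GFP-negative replicates 1, 2 and 3. The lowest GFP-positive array stood above the highest GFP-negative one, and all 6 arrays called it Present. The spread was much wider in the sorted reporter cells, 7969 ± 5705 in GFP-positive against 1410 ± 356 in GFP-negative cells (SD, n = 3 each), and GFP-positive replicate 2 was 3.51 times replicate 3.

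On the log2(signal + 16) scale the difference for *siz* was 2.29 (SE 0.418), which is 4.89-fold with a 95% interval of 2.57 to 9.30 and a limma adjusted p of 0.0161. The difference was 2.29 in the pair hybridised on the earlier day and 2.29 in the 4 arrays of the later day. It was 2.09 within the array lot of 3 arrays, and 1.22 within the lot of the third replicates. The third lot held GFP-positive replicate 2 alone, so that array and its lot cannot be told apart, and without it the difference was 1.74 (adjusted p = 0.0167). The call did not hold when GFP-negative replicate 2 was left out (adjusted p = 0.0549), in the later day's arrays (0.0593) and with no detection filter (0.052), at log2 differences of 2.30, 2.29 and 2.29.

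The annotation gave *siz* 3 probe sets, and they did not show the same pattern. Probe set 149164_at had 152.4, 137.8 and 275.1 in GFP-positive replicates 1, 2 and 3, against 101.3, 358.3 and 268 in GFP-negative replicates. Probe set 149165_at had 41.9, 31.8 and 48.2 in GFP-positive replicates, against 30.2, 31.8 and 46.5 in GFP-negative replicates. Both were Absent on all 6 arrays, their groups overlapped, and neither was tested under the detection filter. With no filter their differences were -0.24 (95% interval -1.31 to 0.83) and 0.12 (-0.60 to 0.84). The rise of *siz* therefore rests on 152311_at, and the sources used here do not give where the probe sets lie in the transcript.

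The other exchange factor gene, *Sec71*, is the fly member of the large Sec7 proteins that activate Arfs at the trans-Golgi. *Sec71* had signals of 576.8, 766.6 and 392.8 in GFP-positive replicates 1, 2 and 3, against 632.8, 769.7 and 730.3 in GFP-negative replicates, all Present. The groups overlapped, with only the third GFP-positive array clearly below the rest. Its log2 difference was -0.33 (95% interval -0.92 to 0.25, limma adjusted p = 0.639).

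**Figure D2:**
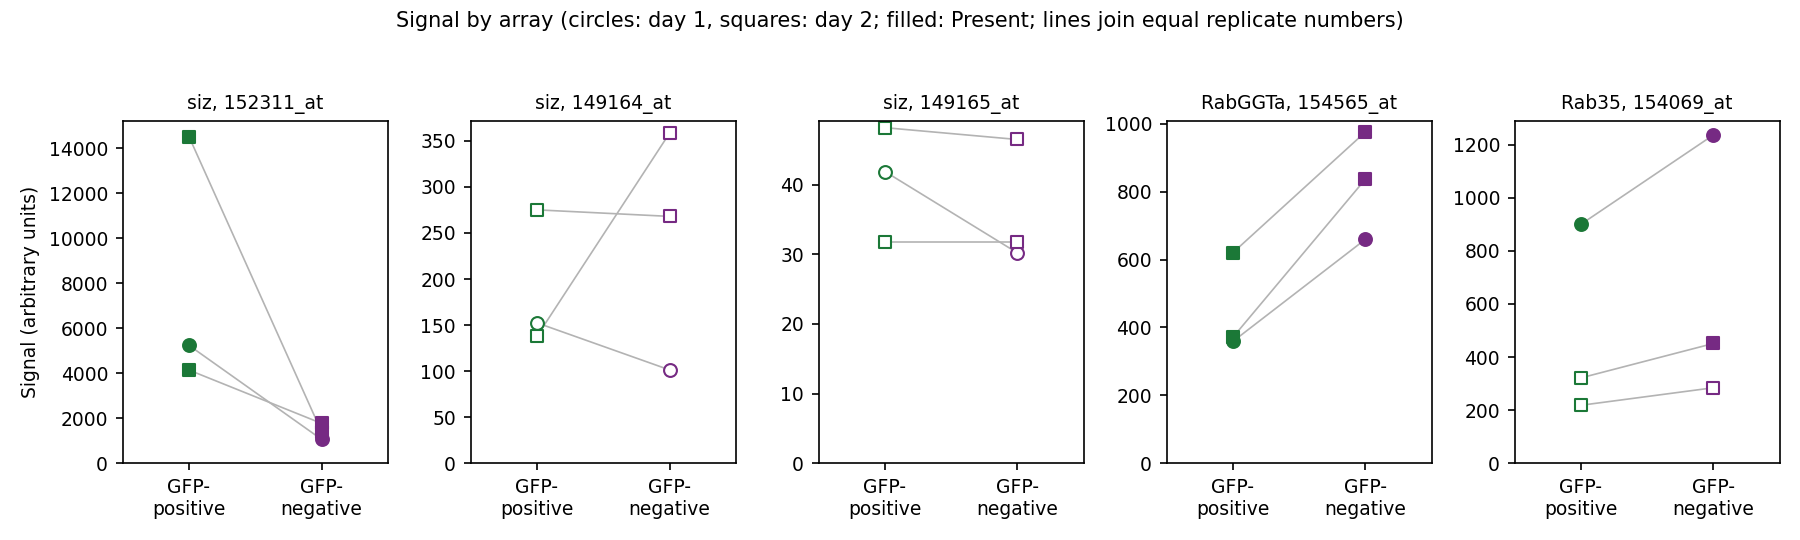
Signal (vertical axis, arbitrary units from 0, a separate scale in each panel) of the 3 *siz* probe sets, *RabGGTa* and *Rab35*, with GFP-positive arrays left and GFP-negative arrays right; grey lines join arrays with the same replicate number, circles mark the earlier and squares the later hybridization day, and filled symbols are Present calls. *siz* 152311_at separates the groups while the other 2 *siz* probe sets overlap, *RabGGTa* is lower in each GFP-positive array than in any GFP-negative one, and *Rab35* is highest on the earlier day in both groups.

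The genes that end Arf activity did not pass. *ArfGAP1* and *ArfGAP3* encode Arf GTPase-activating proteins, of which the first is known from the Golgi. *ArfGAP1* averaged 862 ± 122 in GFP-positive against 1010 ± 74.1 in GFP-negative cells (SD, n = 3 each; log2 difference -0.23, 95% interval -0.70 to 0.24, limma adjusted p = 0.683). *ArfGAP3* averaged 1013 ± 171 in GFP-positive against 1214 ± 273 in GFP-negative cells (log2 difference -0.25, 95% interval -0.79 to 0.29, limma adjusted p = 0.709). Both were Present on all 6 arrays and their groups overlapped.

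Across the 17 tested probe sets, 1 was higher (limma adjusted p under 0.05) and 0 were lower in GFP-positive cells, and 2 had a limma unadjusted p under 0.05. Over all 4943 tested probe sets 2.99% were called, 1.25% higher and 1.74% lower, and 14.0% had an unadjusted p under 0.05. With 1 call the share of 5.88% among the traffic genes says nothing more than that *siz* was called. The groups did not overlap in 2 of the 17 (11.8%), against 20.8% of all tested probe sets. The median log2 difference of the 17 was -0.010, and it was -0.010 over all tested probe sets. The median size of the difference, regardless of sign, was 0.22 for the 17 and 0.26 for all. Of the 17 differences 8 were above 0 (47.1%, against 48.7% of all tested probe sets).

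**Figure D3:**
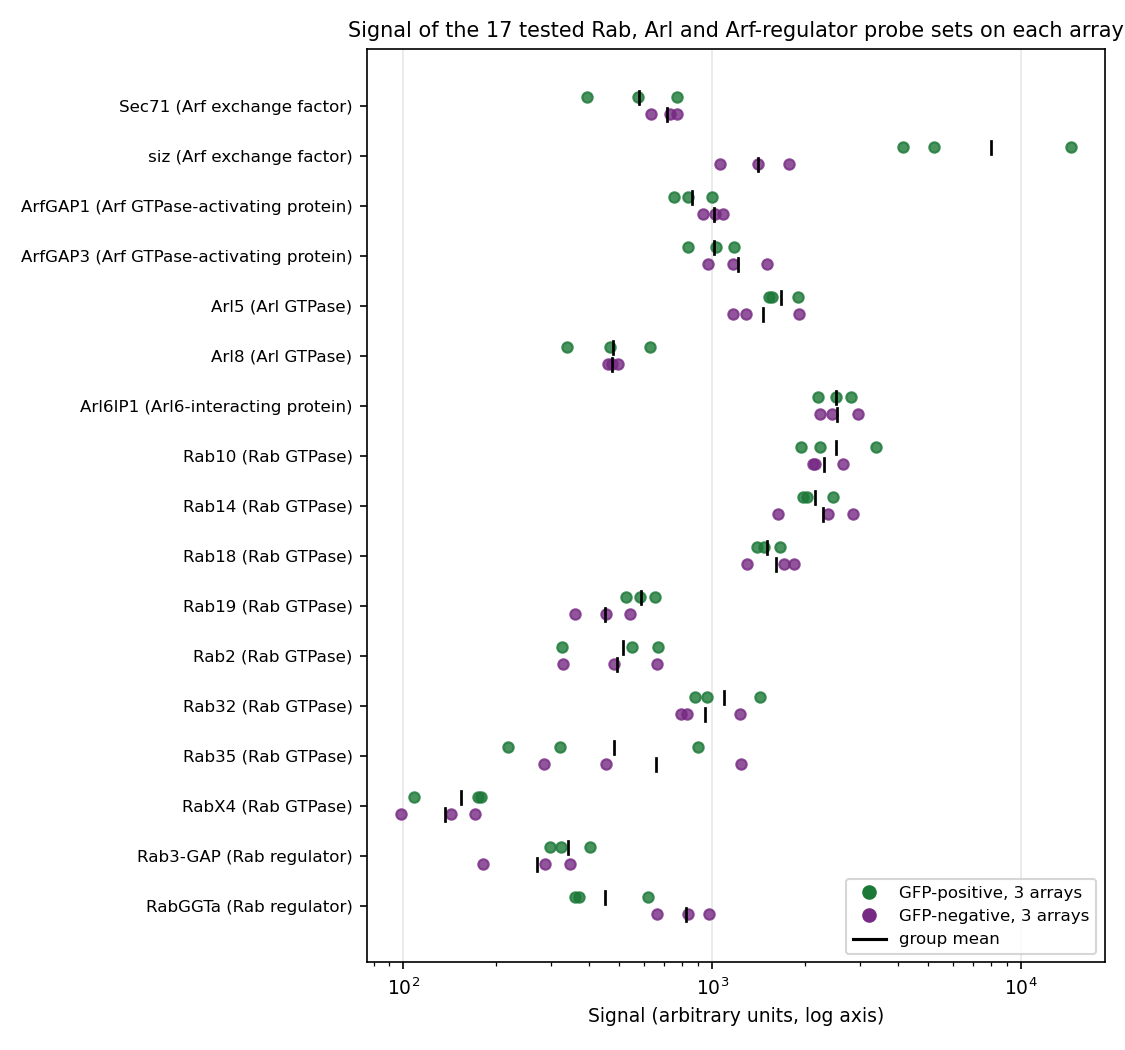
Signal (horizontal log axis, arbitrary units) of the 17 tested probe sets on every array, with the 3 GFP-positive arrays above the 3 GFP-negative arrays of each gene and a black bar at the group mean. Levels of different probe sets are not comparable; within a row, the groups separate for *siz* and *RabGGTa* and overlap for the other 15.

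The gene with the next smallest p was *RabGGTa*, which encodes the alpha subunit of the enzyme that attaches geranylgeranyl lipids to Rabs. *RabGGTa* had signals of 358.7, 370.9 and 620.1 in GFP-positive replicates 1, 2 and 3, against 659.7, 837.1 and 976.1 in GFP-negative replicates 1, 2 and 3. Every GFP-positive array lay below every GFP-negative array, and replicate 3 was the highest of each group. The log2 difference was -0.88 (SE 0.271, 95% interval -1.48 to -0.28) with a limma unadjusted p of 0.00863 and an adjusted p of 0.148, which did not pass. With replicate number as a block its limma adjusted p was 0.0473. That call rests on a pairing whose evidence is weak for replicates 2 and 3. For replicate 1 the pairing cannot be told apart from hybridization day. In that fit 2 of the 17 were called, *siz* higher and *RabGGTa* lower, against 5.20% of all tested probe sets, 2.16% higher and 3.03% lower. The difference was -0.85 in the earlier day's pair and -0.89 in the later day's arrays, and -1.02 and -0.64 within the lots of 3 and 2 arrays.

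The other Rab regulators were measured unevenly. *Rab3-GAP*, named for the complex that ends Rab3 activity, had 324.3, 401.2 and 297.6 in GFP-positive replicates 1, 2 and 3, against 181, 346.3 and 287.4 in GFP-negative replicates, all Present. Its groups overlapped (log2 difference 0.35, 95% interval -0.28 to 0.97, limma adjusted p = 0.65). *Rab3GAP1*, named for the same complex, had 2 probe sets, and *Rab3-GEF*, an exchange factor for Rab3, had 1. All 3 were Absent on all 6 arrays and were not tested, with signals of 319.9 to 445.2 in GFP-positive against 315.7 to 484.9 in GFP-negative cells for *Rab3-GEF*. The 2 *Rab3GAP1* probe sets differed. Signals of 145588_at were 7.8 to 54.2 in GFP-positive against 14 to 76.7 in GFP-negative cells. Those of 145590_at were 354.5 to 591 against 352.6 to 481.8. With no filter their log2 differences were -0.74 (95% interval -1.96 to 0.48) and 0.20 (-0.39 to 0.80). *Arl6IP1*, an endoplasmic reticulum membrane protein gene named for binding Arl6, was Present throughout at 2515 ± 307 in GFP-positive against 2539 ± 377 in GFP-negative cells (SD, n = 3 each), with a log2 difference of -0.010 (95% interval -0.49 to 0.47, limma adjusted p = 0.993).

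None of the 8 tested Rab GTPase genes passed, against 2.99% of all tested probe sets. The groups overlapped in 8 of 8, while 20.8% of all tested probe sets had groups that did not overlap. With so few genes these counts say little. The log2 differences of the 8 ran from -0.43 to 0.38, 5 above and 3 below 0. *Rab2*, known for traffic around the Golgi and for late steps of autophagy, had signals of 548.2, 326.1 and 665.4 in GFP-positive replicates 1, 2 and 3, against 662.8, 478.9 and 329.4 in GFP-negative replicates 1, 2 and 3. The arrays of both groups spanned nearly the same range, and the log2 difference was 0.060 (95% interval -0.66 to 0.78, limma adjusted p = 0.956).

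*Rab10*, known in the fly for basal secretion of basement membrane proteins by follicle cells, had 1942.3, 3388.6 and 2226.4 on probe set 151705_r_at in GFP-positive replicates 1, 2 and 3, against 2648.2, 2147.3 and 2113.3 in GFP-negative replicates. Only GFP-positive replicate 2 stood above the GFP-negative range, and the log2 difference was 0.095 (95% interval -0.47 to 0.66, limma adjusted p = 0.91). Its second probe set, 142861_at, was Present on GFP-negative replicate 1 alone and was not tested. *Rab14*, a Rab of endosomes and the trans-Golgi, averaged 2154 ± 273 in GFP-positive against 2280 ± 611 in GFP-negative cells (SD, n = 3 each; log2 difference -0.053, 95% interval -0.61 to 0.50). *Rab18*, known from the endoplasmic reticulum and lipid droplets, averaged 1508 ± 139 in GFP-positive against 1610 ± 283 in GFP-negative cells (log2 difference -0.082, 95% interval -0.57 to 0.41). *Rab32*, the product of the eye colour gene *lightoid* and needed for pigment granules, averaged 1089 ± 295 in GFP-positive against 950 ± 243 in GFP-negative cells (log2 difference 0.19, 95% interval -0.40 to 0.78).

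*Rab19* had the highest difference of the Rab GTPase genes. Its signals were 584.8, 527 and 652.6 in GFP-positive replicates 1, 2 and 3, against 539.9, 452.3 and 360.4 in GFP-negative replicates 1, 2 and 3, and the groups overlapped only through GFP-negative replicate 1. The log2 difference was 0.38 (95% interval -0.13 to 0.90, limma adjusted p = 0.506). In the RefSeq annotation *Rab19* lies next to *Arl5*, an Arl gene whose relatives act at the trans-Golgi. *Arl5* averaged 1663 ± 206 in GFP-positive against 1456 ± 395 in GFP-negative cells (SD, n = 3 each), and its log2 difference was 0.22 (95% interval -0.32 to 0.75, limma adjusted p = 0.753). *RabX4* averaged 154 ± 39.3 in GFP-positive against 137 ± 36.5 in GFP-negative cells, with a log2 difference of 0.15 (95% interval -0.56 to 0.86).

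*Arl8*, the Arl GTPase of lysosome movement, was near the detection limit, with 3 Present calls on the 6 arrays. Its signals were 337.6, 468.1 and 628.4 in GFP-positive replicates 1, 2 and 3, against 472, 495.2 and 458.3 in GFP-negative replicates 1, 2 and 3. The GFP-negative arrays lay inside the GFP-positive range, and the log2 difference was -0.034 (95% interval -0.60 to 0.54, limma adjusted p = 0.969). The third Arl gene, *Arl6*, known for a role in the traffic of ciliary membrane proteins, was Absent on all 6 arrays, with signals of 25.2 to 50.3 in GFP-positive against 19.8 to 119.7 in GFP-negative cells.

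*Rab35*, a Rab of endocytic recycling and actin organisation, had the widest interval among the tested traffic genes. Its signals were 900, 321.3 and 218.1 in GFP-positive replicates 1, 2 and 3, against 1236.9, 451.1 and 284.2 in GFP-negative replicates 1, 2 and 3. It was Present on replicate 1 of both groups and on GFP-negative replicate 2, and Absent on the other 3 arrays. Both arrays of the earlier hybridization day were high and all 4 of the later day were lower, so the groups overlapped almost fully, although each GFP-positive array was below the GFP-negative array of its number. The log2 difference was -0.43 (SE 0.568, 95% interval -1.69 to 0.84, limma adjusted p = 0.796), with -0.45 in the earlier day's pair and -0.41 in the later day's arrays. With replicate number as a block its SE was 0.242 and its adjusted p 0.386. In a fit with group and day, the earlier day exceeded the later by a log2 difference of 1.72 (SE 0.271, limma adjusted p = 0.033), and 0.384% of all tested probe sets passed for day. The day term of that fit was read after seeing the data, and day here is the hybridization date of the array files. The earlier day held 1 array of each group, replicate 1 in both, so day and the replicate 1 samples cannot be told apart.

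**Figure D4:**
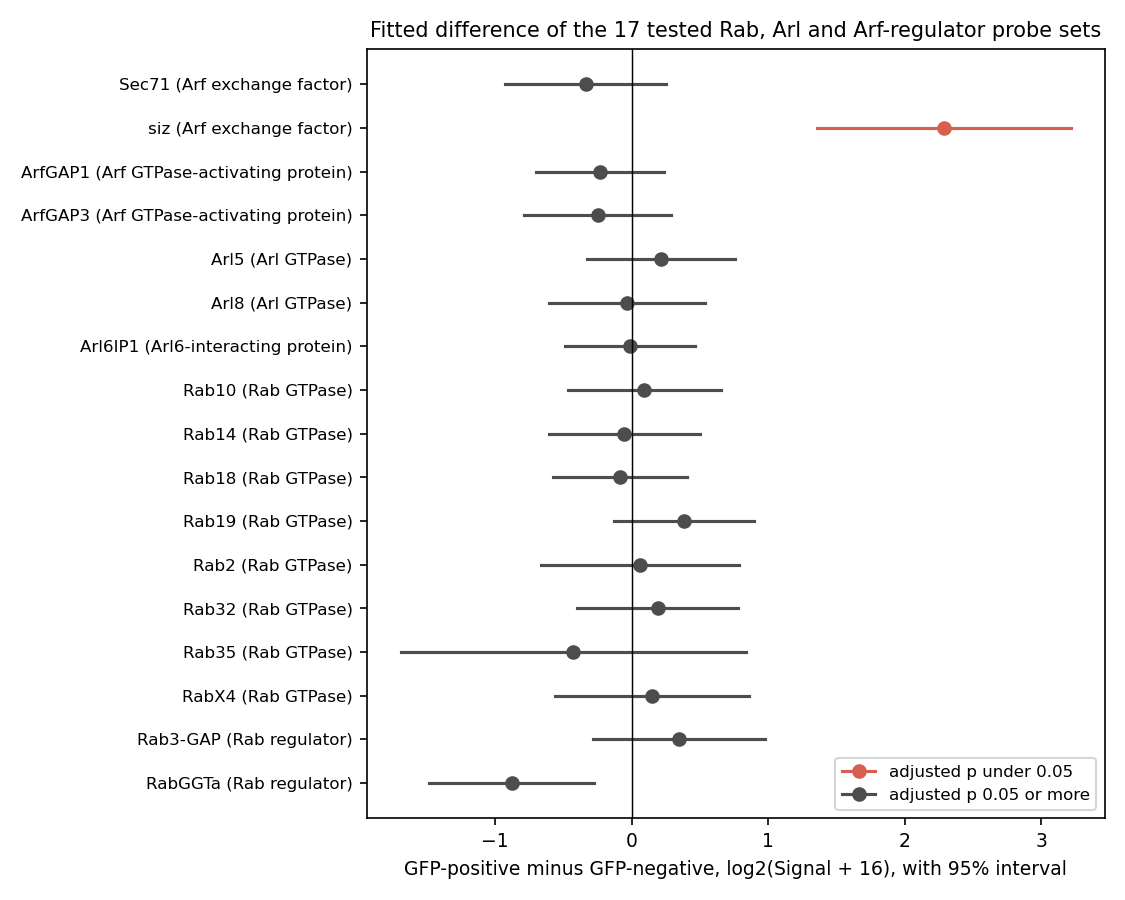
Fitted difference, GFP-positive minus GFP-negative on the log2(signal + 16) scale, for the 17 tested probe sets; points are the limma estimates, bars their 95% intervals, and red marks an adjusted p under 0.05. *siz* stands at 2.29, *RabGGTa* at -0.88, and the other 15 lie between -0.43 and 0.38 with intervals that include 0.

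Apart from *siz* and *RabGGTa*, the other 15 tested genes had log2 differences between -0.43 and 0.38 and limma adjusted p-values between 0.506 and 0.993. For 14 of the 15 the 95% interval lay inside -1 to 1 on the log2 scale, and *Rab35* was the exception. These intervals bound the difference in each probe set, and a p that misses the threshold does not show equal levels.

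The 20 probe sets that were not tested included those of several Rabs known from regulated secretion and synapses. *Rab3*, the synaptic vesicle Rab, had signals of 7.6 to 12.9 in GFP-positive against 9.9 to 16.9 in GFP-negative cells. *Rab27*, known from secretory granules, had 443 to 678 in GFP-positive against 387 to 543.2 in GFP-negative cells, and *Rab26*, also named in granule traffic in mammals, had 36.3 to 211.1 in GFP-positive against 13.5 to 130.2 in GFP-negative cells. These genes were Absent on all 6 arrays, which says that the probe sets did not exceed their mismatch background, not that no transcript was there. *Rab9*, *Rab9Fa*, *Rab30*, *Rab40*, *RabX2*, *RabX5* and *RabX6* were Absent throughout as well. *Rab30*, a Golgi Rab, was the only probe set of these 20 whose groups did not overlap. The share among all tested probe sets was 20.8%, and none was computed for untested ones. *Rab30* signals were 33.8 to 48.9 in GFP-positive against 57.3 to 103.8 in GFP-negative cells, all called Absent. With no filter its limma unadjusted p was 0.122 (adjusted p = 0.634).

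The remaining untested Rab probe sets had scattered Present calls. *Rab23*, known in the fly for planar polarity of wing hairs, was Present on GFP-negative replicate 1 alone, with 494.9, 551.1 and 467.5 in GFP-positive replicates 1, 2 and 3, against 605.7, 516.5 and 261.4 in GFP-negative replicates. *Rab39*, a Rab of the endolysosomal system, was Present on GFP-positive replicate 1 alone, with 146.7 to 300.5 in GFP-positive against 242 to 311.3 in GFP-negative cells. *RabX1* was Present on GFP-positive replicate 1 and GFP-negative replicate 2, with 463.8 to 668.3 in GFP-positive against 427.9 to 509.3 in GFP-negative cells. With no filter, the smallest limma unadjusted p of the 20 was 0.122, and their smallest adjusted p was 0.634. That fit called 97 of all 13966 probe sets.

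The signal summed over all 37 probe sets was 26591.3, 35060.1 and 24176 in GFP-positive replicates 1, 2 and 3, against 23696.4, 22016.2 and 21552.7 in GFP-negative replicates 1, 2 and 3. Without the *siz* probe sets the sums were 21157.2, 20365 and 19711.9 in GFP-positive replicates, against 22505.8, 20224.9 and 19468.1 in GFP-negative replicates. The groups overlapped once *siz* was left out. The exact permutation test (two-sided) on the sum gave p = 0.1 with all members, the smallest that this design allows, and p = 0.9 without *siz*. As *siz* was chosen with its rise known, the first is not independent evidence. Such a sum adds brightness of probe sets that are not comparable and is set by the brightest, so it is read as a description.

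**Figure D5:**
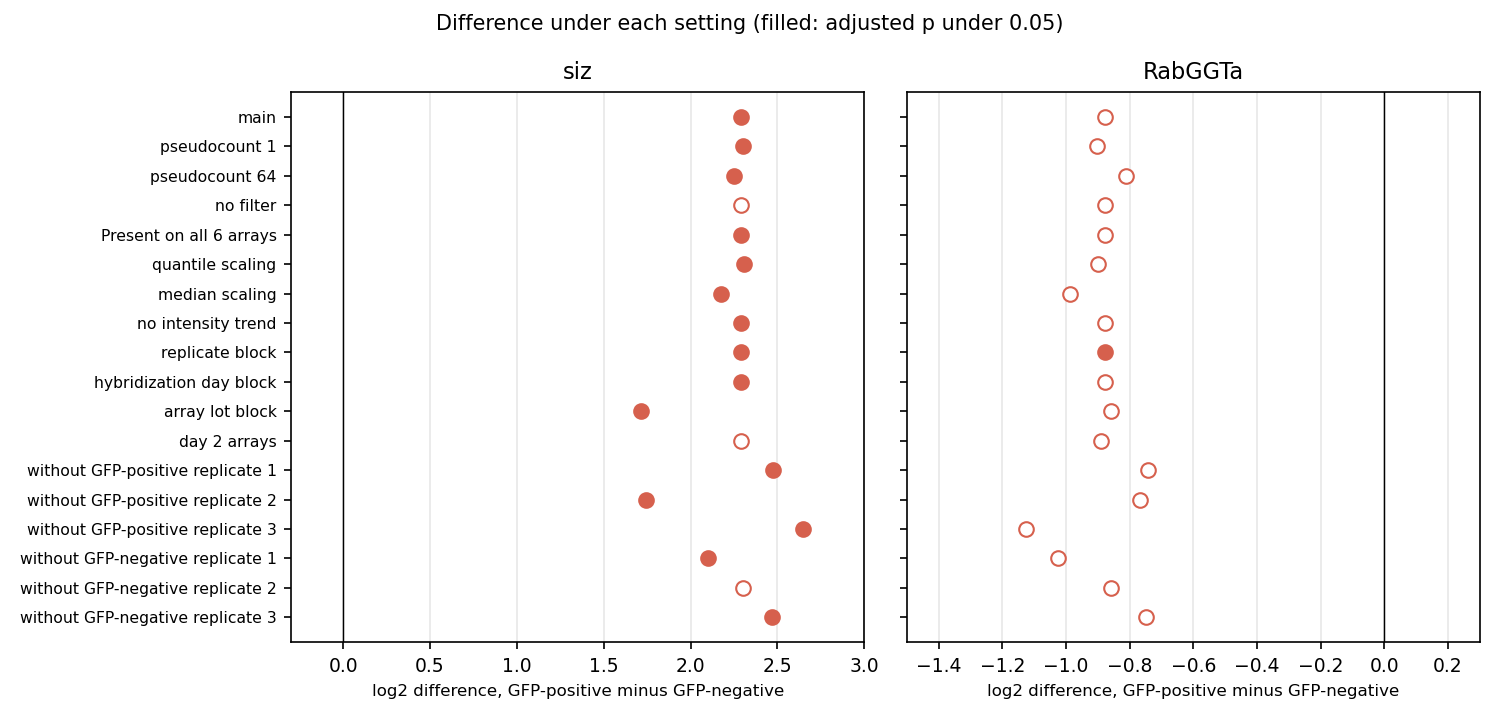
Log2 difference, GFP-positive minus GFP-negative, of *siz* (left) and *RabGGTa* (right) in the fit as reported and in 17 alternative settings; filled points have an adjusted p under 0.05. *siz* stays between 1.72 and 2.65 and is called in 14 of the 17 alternatives, and *RabGGTa* stays between -1.12 and -0.74 and is called in 1, the replicate block.

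Genes that work with Rabs and Arfs but lie outside the choice by symbol were taken from 10 lists of 81 genes, of which 68 had a probe set and 48 were tested. By limma 0 rose and 0 fell, 5 had an unadjusted p under 0.05, and the median log2 difference was -0.089. Over all tested probe sets 2.99% were called and 14.0% had an unadjusted p under 0.05. With the replicate block 1 of the 48 was called, against 5.20% of all tested probe sets, and it was *dnd*, the fly Arl3, a GTPase of microtubule-based and ciliary traffic. *dnd* had signals of 237.6, 217.3 and 160.9 in GFP-positive replicates 1, 2 and 3, against 12.9, 68.3 and 76.1 in GFP-negative replicates. It was Present on 3 of 3 GFP-positive and 0 of 3 GFP-negative arrays. The mean log2 level of *dnd* was 2.99-fold higher with the array's lowest signal called Present standing in for GFP-negative replicate 1. The other GFP-negative signals entered as measured, and this value has no interval. Its fitted log2 difference was 1.85 (95% interval 0.84 to 2.86, limma adjusted p = 0.0631, or 0.0153 with the replicate block).

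*Exo70*, a subunit of the exocyst that tethers secretory vesicles at the plasma membrane, had the opposite detection pattern. *Exo70* had 198.9, 153.7 and 128 in GFP-positive replicates 1, 2 and 3, none Present, against 239.9, 307.4 and 367.4 in GFP-negative replicates, all Present. The groups did not overlap, and the log2 difference of -0.87 did not pass (95% interval -1.48 to -0.25, limma adjusted p = 0.161). *Vps33B*, a subunit of an endosomal tethering complex, had 803.1, 1041.3 and 1193.3 in GFP-positive replicates, against 406.5, 744.3 and 638.4 in GFP-negative replicates (log2 difference 0.77, 95% interval 0.17 to 1.38, limma adjusted p = 0.218). The other lists gave no call either. Tested Arf effectors and coats had 2 positive and 7 negative differences (median log2 difference -0.16), with 0 at a limma unadjusted p under 0.05. The COPII coat of vesicles that leave the endoplasmic reticulum had 1 positive and 2 negative (median -0.42), and retromer, which returns cargo from endosomes, had 0 positive and 3 negative (median -0.30). Rab regulators had 5 positive and 4 negative (median 0.030), Rab effectors and tethers 4 and 5 (-0.070), the exocyst 1 and 3 (-0.080), endosomal and lysosomal tethers 2 and 4 (-0.034), and further Arf GTPase-activating proteins 1 and 2 (-0.022). The remaining Sec7 protein gene, *Efa6*, had a log2 difference of -0.31.

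Cell type markers differed in the same comparison. The proneural and posterior marker lists moved by the values given above. Of the 5 tested muscle precursor markers 4 had a negative and 1 a positive difference, and *Him* and *htl* fell. The positive one was *sns*, a receptor gene of myoblast fusion, measured here on the brightest of its 6 probe sets. It had 711.5, 718.2 and 855.6 in GFP-positive replicates 1, 2 and 3, against 573.8, 398.1 and 623.7 in GFP-negative replicates. It did not pass (log2 difference 0.53, limma adjusted p = 0.36). The part of these markers in the differences of *siz* and *RabGGTa* was not tested.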

How the data were processed

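Total RNA of 6 sorted samples was hybridised to Affymetrix Drosophila genome arrays, 1 per sample. Per the file headers, the deposited intensity is a Signal from Affymetrix statistical expression software, scaled over all probe sets of an array to a target of 500. Per the file headers, the authors' detection p-values gave the Present, Marginal and Absent calls, at Tau 0.015, Alpha1 0.04 and Alpha2 0.06. The deposited series table held the same intensity for all 14010 probe sets. Scaling factors lay between 4.40 and 6.52. The number of arrays limits precision. The sources used here give neither labelling steps nor a genome build, so no coordinates are printed.

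The platform annotation gave 1 symbol to 12442 probe sets, several to 327 and none to 1197. All 37 member symbols matched the RefSeq table (Release 6 assembly) through their Entrez number and stayed as they were. Control probe sets (44) were left out. Values were log2(signal + 16), which understates changes of dim genes. Tests used limma 3.58.1 in R 4.3.3 (lmFit, eBayes, trend on, a single group term, two-sided p-values) over 4943 probe sets, with Benjamini-Hochberg adjustment over all of them and a threshold of 0.05. The fit was also run on simulated data with independent errors and no day, lot or pairing effects. That run cannot show how the p-values behave under such effects. Alternatives were other pseudocounts, filters, scalings and blocks, subsets of arrays and leaving out each array.

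Same-numbered GFP-positive and GFP-negative arrays deviated together (correlations 0.402, 0.102 and 0.122 for numbers 1, 2 and 3), and the numbers were taken to pair the samples because each exceeded 0.1. The evidence is weak for numbers 2 and 3, since GFP-positive replicate 3 correlated more with GFP-negative replicate 2 (0.221) and GFP-positive replicate 2 about equally with GFP-negative replicate 3 (0.098). The pairing comes from this check and from the titles' numbers, not from a stated shared batch. Number 1 arrays were the only ones of the earlier hybridization day, so their correlation cannot be told apart from a shared day. Number 3 arrays shared an array lot.

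Genes were named by rule: all members, with every array's value for the exchange factors, for those with an unadjusted p under 0.05 and for *Rab2* and *Arl8*, and beyond the members the 3 listed genes with the smallest p. Array values of *Rab10*, *Rab19*, *Rab23*, *Rab35* and *Rab3-GAP* were added after seeing the data. The members and lists were chosen with earlier results of these data known.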

Additional observations from a re-analysis of the deposited data

How the results depend on the processing

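The number of probe sets changed was 148 of 4943. It was 257 with replicate number as a block and 229 with the hybridization day as a block, each with all 148 among them, and 97 with no filter, 50 where only probe sets Present throughout were tested and 76 in the later day's arrays, and between 69 and 153 with 1 array left out (78 without GFP-positive replicate 1, 84 without GFP-positive replicate 3, 69 without GFP-negative replicate 2 and 98 without GFP-negative replicate 3). The number of traffic genes changed was 1 (*siz*). It was 2 with the replicate block, which added *RabGGTa*, 0 with no filter, 0 in the later day's arrays and between 0 and 1 with 1 array left out, 0 being the fit without GFP-negative replicate 2. The replicate block changed no other call of a traffic gene. *siz* kept its sign under all 17 alternatives, with log2 differences of 1.72 to 2.65 and adjusted p-values of 0.0002505 to 0.0593, and *RabGGTa* kept its sign under all 17, with -1.12 to -0.74 and adjusted p-values of 0.0473 to 0.421.

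The median log2 difference of the tested traffic genes was -0.01, against -0.12 with median scaling, which moved the median of all tested probe sets to -0.12 too, 0.075 with the lot block, and -0.035 to 0.096 with 1 array left out. Small differences changed sign in genes that were called under no setting. These were *Arl6IP1* (0.038 with quantile scaling, 0.075 with the lot block, -0.10 to 0.10 with 1 array left out), *Rab10* (-0.019 with median scaling, -0.14 with the lot block, -0.14 to 0.26), *Rab2* (-0.050 with median scaling, -0.19 to 0.35), *Rab14* (0.090 with the lot block, 0.023 in the later day's arrays, -0.27 to 0.12), *Rab32* (-0.13 in the later day's arrays, -0.018 to 0.39), *Arl8* (0.18 in the later day's arrays, -0.25 to 0.19) and *ArfGAP3* (0.046 in the later day's arrays). With 1 array left out, *RabX4* ran from -0.046 to 0.36, *Rab18* from -0.23 to 0.018 and *Rab35* from -0.995 to 0.15. The cause was not tested. The difference in summed signal was 6187, or -322 without *siz*, and 2962 to 8404 with 1 array left out. That in Present calls was -1.67, and -2.83 to -0.833 with 1 array left out.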
